A study of Mus musculus with 8 samples.

Results

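The genes described here code for the receptors of glutamate and GABA, the main excitatory and inhibitory transmitters of the brain. They were chosen by symbol alone, as protein-coding genes of the AMPA (Gria), NMDA (Grin), kainate (Grik), delta (Grid), metabotropic glutamate (Grm), GABA-A (Gabr) and GABA-B (Gabbr) families, and 45 of the 22367 protein-coding genes of the mm9 annotation met that rule. One of the 45, Grid2ip, codes for delphilin, a synaptic scaffold protein that is no receptor, so 44 receptor genes remain beside it. The study mapped 5-hydroxymethylcytosine (5hmC) by GLIB-Seq, in which a glucose is attached to each 5hmC, opened with periodate and coupled to biotin, so that fragments with 5hmC can be pulled down and sequenced. It has 1 peak list for each of 6 samples. These were the E14 line of mouse embryonic stem cells (ESCs), fibroblasts of C57BL/6 embryos (MEFs), labelled embryonic day 11 although the methods give a later day, brain and liver of C57BL/6 mice 8 weeks old, and E14 ESCs that were transfected with shGFP, the control hairpin, or with shSuz12, a hairpin against a subunit of the Polycomb complex PRC2. Brain and liver are whole tissues, in which fewer cells of a type that carry 5hmC and less 5hmC per cell cannot be told apart. With 1 library per condition no difference could be tested against replicates, and the intervals given are exact (Clopper-Pearson) 95% intervals that cover counting error alone.

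5hmC is made from 5-methylcytosine by the TET enzymes, mostly at CpG dinucleotides, and brain is known as a tissue rich in it. Ionotropic glutamate receptors are cation channels of 4 subunits: AMPA receptors carry most of the fast excitatory current, NMDA receptors need glutamate together with glycine or D-serine and let calcium in, kainate receptors modulate transmission on both sides of the synapse, and delta receptors organise synapses. Metabotropic glutamate receptors and GABA-B receptors act through G proteins, whereas GABA-A receptors are chloride channels of 5 subunits.

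Sequence from the highest-scoring brain peak of a gene shows what DNA lay under the peaks, although a peak does not place 5hmC at a given base. For each of the 36 genes with a brain peak, the window of 100 bp richest in CpGs was read from the mm9 reference (NCBIM37), within introns or coding exons, so that the windows are CpG-rich by choice. Of these windows 13 lay in a coding exon, with a median of 8 CpGs, and 23 in an intron, with a median of 4. The brain peak around the window overlapped an ESC peak in 12 of the 13 coding-exon windows and in 8 of the 23 intronic ones, and it overlapped no ESC, MEF or liver peak in 1 and 13, respectively. The first set shows coding-exon windows whose peaks were shared with ESCs, each written 5′ to 3′ on the gene's strand with CpGs in capitals. They are from Grm5 at chr7:95278802-95278901 (plus strand), Grik3 at chr4:125316558-125316657 (plus strand) and Grin2b at chr6:135682571-135682670 (minus strand), with 17, 8 and 8 CpGs.
Grm5: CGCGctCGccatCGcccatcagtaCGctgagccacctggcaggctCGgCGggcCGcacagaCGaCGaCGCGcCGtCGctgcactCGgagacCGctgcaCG
Grik3: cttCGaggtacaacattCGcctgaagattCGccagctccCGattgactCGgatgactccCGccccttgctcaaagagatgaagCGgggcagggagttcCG
Grin2b: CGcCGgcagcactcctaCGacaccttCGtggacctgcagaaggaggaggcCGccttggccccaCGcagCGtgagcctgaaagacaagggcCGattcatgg

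The second set shows intronic windows from genes in which brain had the largest number of peaks or many peaks seen in no other cell type. The Grik4 (chr9:42694323-42694422, minus strand) and Gabbr2 (chr4:46848109-46848208, minus strand) windows lay in peaks that overlapped both ESC and MEF peaks, and the Gabbr2 peak overlapped a liver peak as well. The Grid1 window (chr14:35745919-35746018, plus strand) lay in a peak shared with ESCs, and the Grik1 (chr16:87950398-87950497, minus strand) and Gabrg3 (chr7:64533553-64533652, minus strand) windows lay in peaks that overlapped no peak of another library. They hold 3 to 7 CpGs each, fewer than the coding-exon windows above.
Grik4: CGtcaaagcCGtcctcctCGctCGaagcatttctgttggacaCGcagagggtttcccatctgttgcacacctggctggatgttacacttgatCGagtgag
Gabbr2: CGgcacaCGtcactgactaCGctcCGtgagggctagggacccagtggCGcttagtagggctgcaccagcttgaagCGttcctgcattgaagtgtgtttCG
Grid1: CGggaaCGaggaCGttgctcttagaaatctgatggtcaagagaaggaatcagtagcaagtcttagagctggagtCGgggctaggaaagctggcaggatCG
Grik1: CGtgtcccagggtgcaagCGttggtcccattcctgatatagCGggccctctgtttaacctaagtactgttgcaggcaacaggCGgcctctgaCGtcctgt
Gabrg3: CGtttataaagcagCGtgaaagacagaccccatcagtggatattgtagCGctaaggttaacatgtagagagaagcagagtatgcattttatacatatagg

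The lists were made at different thresholds. The lowest peak score, taken as 10 times the negative log10 of the MACS p-value, was 30 in brain and MEFs, 80 in liver and ESCs, 30.34 in shSuz12 and 50.02 in shGFP, and 21.08% of the 157511 brain peaks reached 80. The lists hold 130408 to 217025 peaks and no read counts, so that their depth is unknown. To set genes side by side, the share of a gene span under peaks was divided by the same share over all protein-coding gene spans in that library, which was 11.73% in ESCs, 11.86% in MEFs, 13.97% in brain, 12.92% in liver, 7.504% in shGFP and 5.294% in shSuz12. A relative coverage of 1 is therefore the average of genes in that library. Few peaks in any list were on chromosome X (22 in brain, 757 in MEFs), where the density was 0.002225 to 0.05557 times that of the genome, so the low values of the X-linked Gria3 and Gabra3 cannot be read as low 5hmC. Peak lists hold no expression, so the tissue labels and the knockdown of Suz12 could not be checked against marker genes.

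The receptor genes carried less 5hmC than the average gene in every library, and of the 4 cell types liver had the least of it on them. Brain had the most by the lists as deposited. Peaks covered 3.675% of their combined span of 12.15 Mb in ESCs, 3.405% in MEFs, 4.933% in brain, 1.313% in liver, 2.457% in shGFP and 1.679% in shSuz12. Peak midpoints within the genes numbered 418, 478, 507, 154, 325 and 353, in the same order. Set against the share of the genome that the genes take up, brain peaks were found there 0.7032 times as often as an even spread would give (0.6434 to 0.767) and liver peaks 0.258 times (0.2189 to 0.3021). These intervals do not overlap, but they take each peak as independent. The ESC value was 0.5313, the MEF value 0.4811, the shGFP value 0.5338 and the shSuz12 value 0.5559. With only peaks that scored 80 or more, the brain value was 0.5066, just under that of ESCs, the liver value 0.258 and the median relative coverage in brain 0.

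The median gene of the set had a relative coverage of 0.0794 in ESCs, 0.136 in MEFs, 0.169 in brain, 0 in liver, 0.140 in shGFP and 0.166 in shSuz12. Over all protein-coding genes the medians were 0.748, 0.373, 0.460, 0.344, 0.556 and 0.576. Receptor genes are long, with a median span of 184.1 kb against 15.43 kb for all genes, but among protein-coding genes of at least 50 kb the medians were also higher than theirs, 0.558, 0.751, 0.756, 0.421, 0.528 and 0.622. A peak reached 36 of the 45 genes in each of ESCs, MEFs and brain, 17 in liver, 35 in shGFP and 38 in shSuz12. For a background, genes were split at a GC content of 47%. Below it, 9, 6, 7 and 23 of 30 receptor genes had no peak in ESCs, MEFs, brain and liver, beside 5168, 5311, 5620 and 6031 of all 12912 genes. From 47% up, 0, 3, 2 and 5 of 15 had none, beside 2042, 3405, 3180 and 3375 of 9455. Gene length was not matched in these counts. Gabra3 and Gabra6 had no peak in any list, and Gabrg1 had none in the 4 cell types. The heat map of 40 of the genes shows how uneven the set was, with many spans at or near 0% and the 6.476 kb of Grin3b at up to 85.9%.

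**Figure D1:**
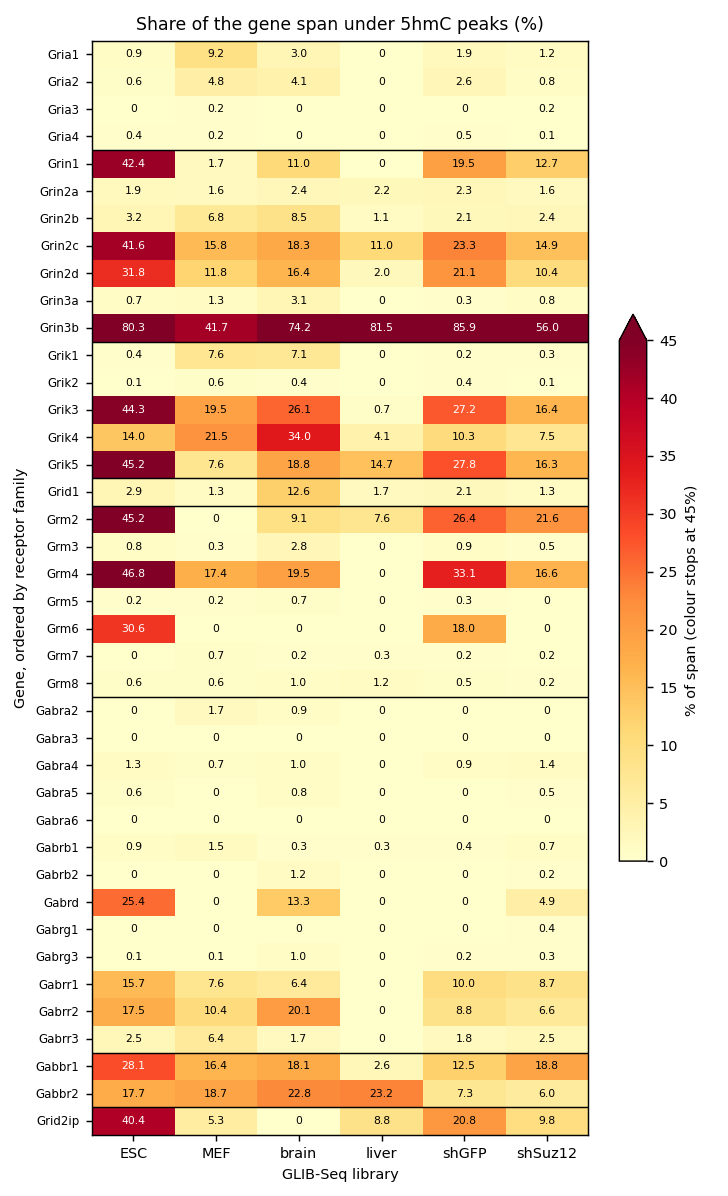
Share of each gene span under 5hmC peaks, in percent, for 40 of the 45 genes (rows, ordered by receptor family, Grid2ip last) in 6 libraries (columns, 1 library each). Colour stops at 45%, and Grik4 and Grid1 are darkest in brain, at 34.0% and 12.64%, whereas Grin1, Grik3, Grik5, Grm2 and Grm4 are darkest in ESCs, at 42.43 to 46.76%.

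The comparison of brain with each other cell type asked which receptor genes differ in 5hmC in the tissue where synapses use them. A gene was counted as past the fold where relative coverage differed by at least 2-fold and peaks covered at least 1000 bp of it in the higher library. Against liver, 24 of 34 genes that could be compared were higher in brain, 17 of them with no liver peak, and only Grid2ip was lower. Of all protein-coding genes 26.8% were higher and 31.2% lower, and of genes of at least 50 kb 39.8% and 19.4%. Among the receptor genes of that length, 18 of 24 were higher and 0 of 24 lower.

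Against ESCs the set divided. Of 38 genes, 17 were at least 2-fold higher in brain, beside 17.5% of all protein-coding genes and 31.3% of long ones, and 13 were at least 2-fold lower, beside 32.8% and 14.9%. All 17 of the higher genes were 50 kb or longer, from 27 long genes compared, and they included Grid1, Grik1, Grik4, Gria1, Gria2, Grin2b and Grm5. Those lower in brain included Grin1, Grin2c, Grin2d, Grm2, Grm4 and Grik5, and 5 of the 13 were 50 kb or longer. Against MEFs, 9 of 36 genes were higher in brain (28.2% of all genes, 15.3% of long ones) and 7 were lower (18.3% and 19.3%), and of the long receptor genes 6 of 26 were higher and 6 lower. Over all lengths these shares were near the background. Past the fold above all of ESCs, MEFs and liver were 5 genes, Gabrb2, Gabrg3, Grid1, Grm3 and Grm5, beside 2.06% of all protein-coding genes and 2.65% of long ones. Only Grid2ip was past it below all of them, beside 3.84% and 2.49%.

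The score threshold of the brain list bears on these counts. When only peaks that scored 80 or more were kept, brain covered 16 of the genes in place of 36. The balance against ESCs then turned to 3 higher (Grid1, Grin3a and Grm5) and 20 lower of 31, beside 14.9% and 53.7% of all genes. Against liver 14 of 23 were higher and 7 lower, beside 21.2% and 51%. Against MEFs 6 of 21 were higher and 6 lower, beside 34.6% and 32.8%. Gabrb2, Gabrg3 and Grm3 then had no coverage in brain.

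Of 39 genes with at least 1000 bp covered in some cell type, relative coverage was highest in ESCs for 16, in MEFs for 11, in brain for 10 and in liver for 2. Of all such protein-coding genes the shares were 35.1, 15.5, 12.2 and 37.1%, in the same order. Brain was highest for 18.3% of those of at least 50 kb, and for 10 of the 28 receptor genes of that length. The 10 included Grid1, Grik4, Grin2a, Grin2b, Grin3a, Grm3, Grm5, Gabrb2 and Gabrg3. The liver genes were Gabbr2 and Grm8. At a score of at least 80, brain was highest for 7 of 34, beside 17.4% of all genes.

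**Figure D2:**
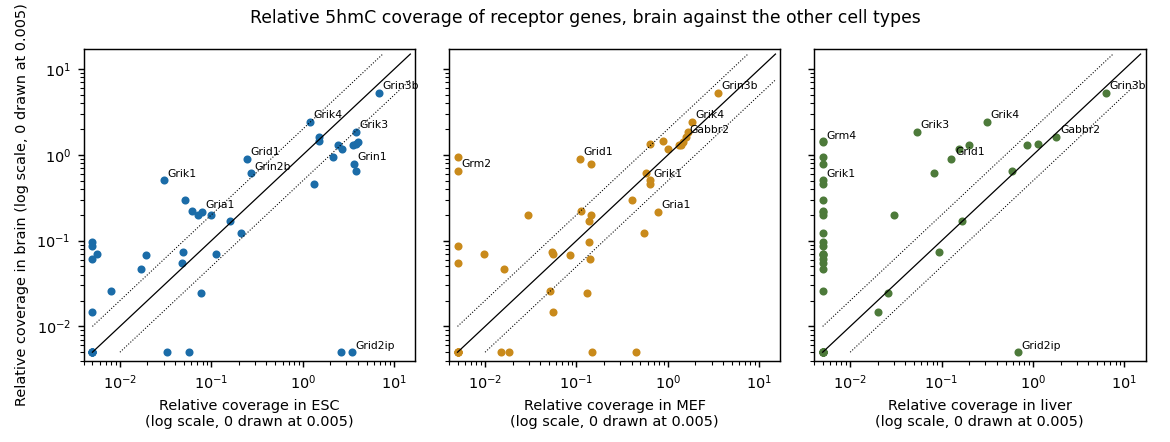
Relative coverage of each of the 45 genes in brain (vertical, log scale) against ESCs, MEFs and liver (horizontal, log scale), where 1 is the average protein-coding gene and values of 0 are drawn at 0.005. The solid line marks equal values and the dotted lines a 2-fold difference. Against liver 24 genes were past the fold with at least 1000 bp covered, 17 of them at 0 in liver. Genes below that minimum are drawn as well, and some of them also lie past the upper dotted line.

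Grid1, which codes for the delta receptor GluD1, was the gene with the clearest excess in brain. Its 763.6 kb (chr14:35633011-36396565, plus strand) held 79 brain peaks, against 25 in ESCs, 14 in MEFs, 16 in liver, 20 in shGFP and 18 in shSuz12. Relative coverage was 0.904 in brain and 0.245, 0.108, 0.128, 0.279 and 0.237 in the others, in the same order, which is 3.69 times the ESC and 8.38 times the MEF value. Brain stood apart from the other libraries, which did not exceed 0.279. The brain peaks crowded toward the 5′ end, with 39, 20, 13, 3 and 4 in 5 equal parts of the gene, from the TSS on. The ESC peaks lay there too, with 18 of 25 in the first of these parts, whereas 11 of the 16 liver peaks lay in the middle one. Of the 79 brain peaks 51 overlapped no peak in ESCs, MEFs or liver. At a score of at least 80, where 17 brain peaks remained, relative coverage was 0.827 in brain and 0.245, 0.0211 and 0.128 in ESCs, MEFs and liver.

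The kainate genes held more peaks than any other family in all libraries but liver, 193 in brain, 166 in ESCs, 185 in MEFs and 30 in liver, and 13.66% of their span was covered in brain against 1.563% in liver. Grik4, for the high-affinity subunit GluK4, had the most brain peaks of all 45 genes. Its 426.4 kb (chr9:42326218-42752576, minus strand) held 109 in brain, 60 in ESCs, 95 in MEFs, 20 in liver, 52 in shGFP and 59 in shSuz12. Relative coverage was 2.43 in brain, 1.19 in ESCs, 1.81 in MEFs, 0.315 in liver, 1.37 in shGFP and 1.42 in shSuz12. The brain value was the highest, but it was only 1.34 times the MEF value. The peaks were spread along the whole gene, and 33 of the 109 overlapped none in the other cell types. A second coding gene, 9530085L02Rik, overlaps Grik4 in the annotation, and peaks over both cannot be assigned to one of them.

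Grik3, for GluK3, had the second highest brain value of the family but an ESC pattern. Its 223.5 kb held 43 brain peaks and 83 ESC, 41 MEF, 1 liver, 65 shGFP and 59 shSuz12 peaks. Relative coverage was 1.87 in brain, 3.78 in ESCs, 1.64 in MEFs, 0.0539 in liver, 3.62 in shGFP and 3.10 in shSuz12. All 3 ESC libraries were above brain, and 36 of the 43 brain peaks overlapped an ESC peak. Grik5, for the partner subunit GluK5, had 1.35 in brain, 3.85 in ESCs, 0.638 in MEFs, 1.14 in liver, 3.70 in shGFP and 3.08 in shSuz12, again highest in the ESC line, and each of its 10 brain peaks overlapped an ESC peak.

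Grik1, for GluK1, was the reverse of Grik3. It had 28 brain and 37 MEF peaks but 2 in ESCs, 0 in liver, 1 in shGFP and 3 in shSuz12. Relative coverage was 0.505 in brain, 0.637 in MEFs, 0.0302 in ESCs, 0 in liver, 0.0275 in shGFP and 0.0640 in shSuz12. Brain and MEFs were both far above the ESC line, although brain and MEF peaks were mostly at different places, as 19 of the 28 brain peaks overlapped no peak in another cell type. None of the 28 had a score of 80 or more, so Grik1 had no coverage in brain at the common score. Grik2, for GluK2, had the lowest value of the family in brain, 0.0258, and 0.00808 in ESCs, 0.0516 in MEFs, 0 in liver, 0.0526 in shGFP and 0.0158 in shSuz12.

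**Figure D3:**
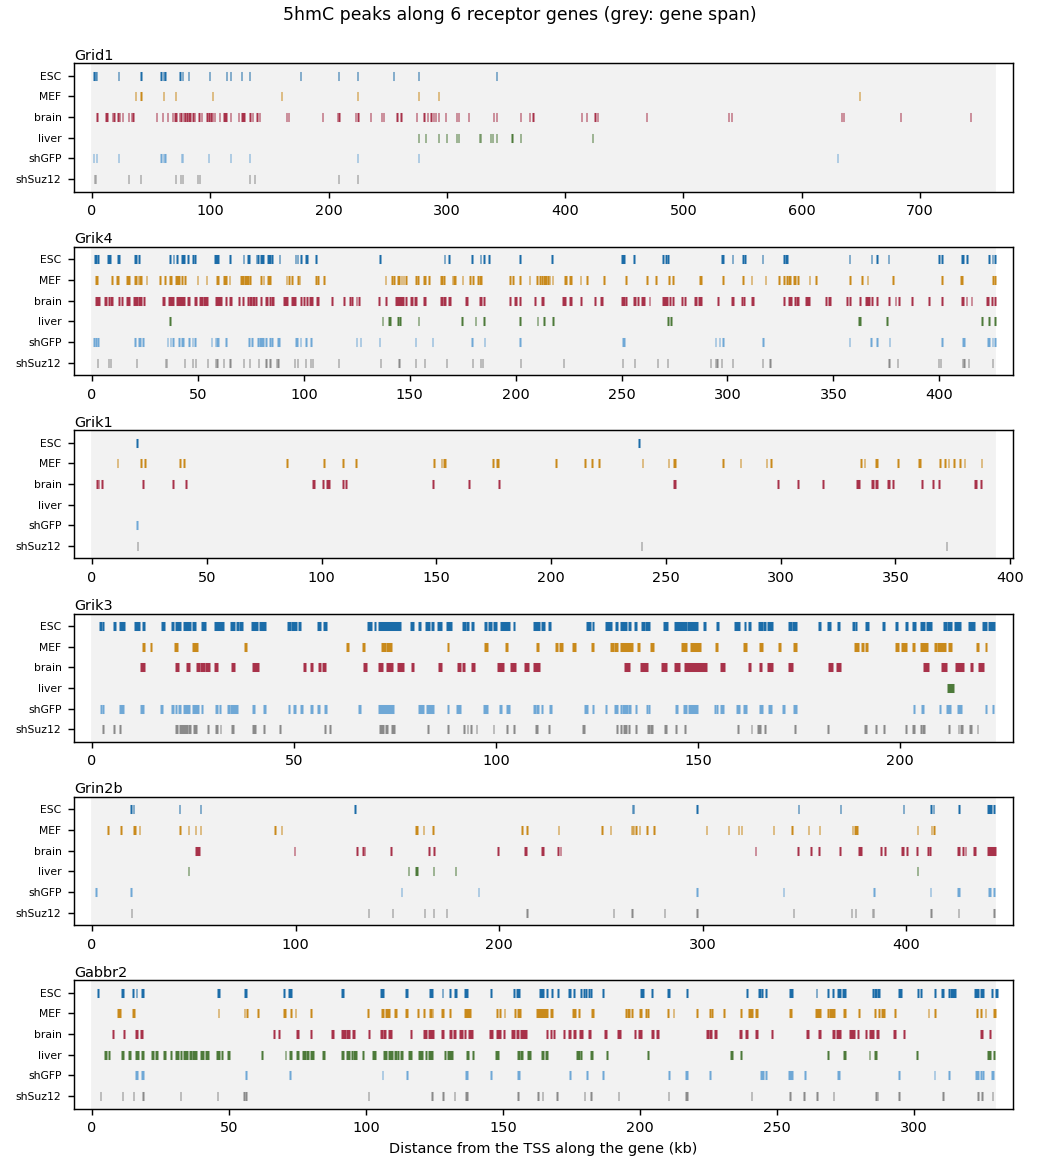
Positions of the 5hmC peaks along 6 receptor genes, as distance from the TSS in kb (horizontal), with 1 line per library. Brain peaks crowd toward the TSS of Grid1, Grik3 is filled by ESC peaks and holds 1 in liver, Grik1 is marked mainly in brain and MEFs, and liver peaks fill Gabbr2.

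The NMDA genes fell into a short group with high coverage in ESCs and a long group with little. Grin3b codes for GluN3B, which binds glycine. It spans 6.476 kb and had the highest relative coverage of all 45 genes in every library, 5.31 in brain, 6.85 in ESCs, 3.51 in MEFs, 6.31 in liver, 11.4 in shGFP and 10.6 in shSuz12, and another coding gene, ORF61, overlaps it. In brain 1 peak covered 74.23% of the gene. Grin2c, for the GluN2C subunit of cerebellar granule cells, had 1.31 in brain, 3.55 in ESCs, 1.33 in MEFs, 0.851 in liver, 3.10 in shGFP and 2.81 in shSuz12. Both genes were lower in brain than in the ESC line. With only peaks that scored 80 or more, however, Grin3b had 13.7 in brain, 6.85 in ESCs, 12.8 in shGFP and 20.1 in shSuz12.

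Grin1, for the obligatory subunit GluN1, had a relative coverage of 0.787 in brain, 3.62 in ESCs, 0.145 in MEFs, 0 in liver, 2.60 in shGFP and 2.41 in shSuz12. By the lists as deposited brain was thus between MEFs and the ESC line. At the common score Grin1 had 1.1 in brain, 3.62 in ESCs, 3.38 in shGFP, 0.756 in shSuz12 and 0 in MEFs. Grin2b codes for GluN2B, the GluN2 subunit that prevails in the young forebrain. Its 443.7 kb held 31 brain, 16 ESC, 38 MEF, 6 liver, 11 shGFP and 19 shSuz12 peaks, and relative coverage was 0.608, 0.269, 0.569, 0.0829, 0.284 and 0.462, in the same order. The brain value was close to the MEF value, but only 7 of the 31 brain peaks overlapped MEF peaks. Of the 31, 15 lay in the last of the 5 equal parts of the gene, where the 3′ coding exon shown above carried the peak with the highest score, 381.8. Grin2a, for GluN2A, had the lowest brain value of the family, 0.169, beside 0.159 in ESCs, 0.136 in MEFs and 0.168 in liver. It had 0.306 in shGFP and 0.305 in shSuz12. By the lists as deposited the 4 cell types were thus close to each other. At the common score, however, Grin2a had 0 in brain and 0 in MEFs, against 0.159 in ESCs and 0.168 in liver.

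The AMPA genes had little 5hmC outside MEFs and no liver peak. Gria1, for the subunit GluA1, had 33 MEF peaks against 10 in brain, 4 in ESCs, 9 in shGFP and 6 in shSuz12. Relative coverage was 0.779 in MEFs, 0.218 in brain, 0.0794 in ESCs, 0 in liver, 0.254 in shGFP and 0.219 in shSuz12, so MEFs and not brain stood apart. Gria2, for GluA2, which makes the channel impermeable to calcium when edited, had 0.296 in brain, 0.405 in MEFs, 0.0512 in ESCs, 0 in liver, 0.352 in shGFP and 0.151 in shSuz12. Gria4, for GluA4, had no peak in brain or liver, and 0.0325 in ESCs, 0.0182 in MEFs, 0.0618 in shGFP and 0.0131 in shSuz12. Gria3, on chromosome X, had a relative coverage of 0 in all libraries except MEFs (0.0150) and shSuz12 (0.0312).

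Among the metabotropic glutamate receptors, the genes with the most 5hmC were marked in the ESC line. Grm4, for mGlu4, a presynaptic receptor, had a relative coverage of 1.398 in brain, 3.99 in ESCs, 1.47 in MEFs, 0 in liver, 4.41 in shGFP and 3.13 in shSuz12. All 14 of its brain peaks overlapped ESC peaks. Grm2, for mGlu2, had 0.654 in brain, 3.85 in ESCs, 0 in MEFs, 0.587 in liver, 3.51 in shGFP and 4.07 in shSuz12. Grm6, for mGlu6, the receptor of retinal ON bipolar cells, had no peak within its span in brain, MEFs, liver or shSuz12. Relative coverage of Grm6 was 2.61 in ESCs and 2.40 in shGFP. Within 1 kb of its TSS, a peak covered 649 bp in shSuz12, against 0 bp in shGFP.

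The long genes of the family had low values, and their order among the cell types differed. Grm3, for mGlu3, had 9 brain peaks against 2 in ESCs, 2 in MEFs and 0 in liver, and a relative coverage of 0.198 in brain, 0.0708 in ESCs, 0.0292 in MEFs, 0 in liver, 0.118 in shGFP and 0.0955 in shSuz12. Grm5, for mGlu5, had 3 brain peaks and 0.0471 in brain against 0.0171 in ESCs, 0.0162 in MEFs, 0 in liver, 0.0428 in shGFP and 0 in shSuz12, so that the shGFP library nearly reached brain. Of the 3503 bp covered in brain, 1546 bp were in the peak over the coding exon shown above, which overlapped ESC and MEF peaks. Grm7 had 0.0148 in brain, 0.0202 in liver, 0 in ESCs and 0.0555 in MEFs, and Grm8 had 0.0731, 0.0936, 0.0484 and 0.0546, so that brain was not the highest in either.

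The 16 GABA-A genes were the least marked large family, with 0.874% of their span covered in ESCs, 1.01% in MEFs, 1.12% in brain, 0.0585% in liver, 0.460% in shGFP and 0.650% in shSuz12. In liver 1 of the 16, Gabrb1, had peaks. The 4 with the highest relative coverage in brain were the rho subunits of retinal receptors and the delta subunit of extrasynaptic ones. Gabrr2 had 1.44 in brain, 1.49 in ESCs, 0.879 in MEFs, 0 in liver, 1.17 in shGFP and 1.24 in shSuz12. Gabrd had 0.9504 in brain, 2.17 in ESCs, 0 in MEFs, 0 in liver, 0 in shGFP and 0.928 in shSuz12. Both were lower in brain than in ESCs, Gabrr2 by little, but with only peaks that scored 80 or more Gabrd had 2.45 in brain and 2.17 in ESCs. Gabrr1 had 0.460 in brain, 1.34 in ESCs, 0.637 in MEFs, 0 in liver, 1.33 in shGFP and 1.64 in shSuz12. Gabrr3, which overlaps Orai2-ps, had 0.123 in brain, 0.212 in ESCs, 0.542 in MEFs, 0 in liver, 0.233 in shGFP and 0.468 in shSuz12.

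The alpha, beta and gamma subunits that make up the common synaptic receptors were nearly free of peaks. No brain peak reached 5 of these genes, among them Gabra3, Gabra6 and Gabrg1. Gabra6, a subunit of cerebellar granule cells, was at 0 in all 6 libraries. Gabra3, on chromosome X, was at 0 in them too. Gabrb2 and Gabrg3 were higher in brain than in the other cell types. Within its span Gabrb2 had 3 brain peaks, 1 in shSuz12 and none elsewhere. An ESC peak covered 902 bp within 1 kb of its TSS, where brain had 0 bp covered. Gabrg3, with 670.7 kb, held 7 brain peaks, all without overlap in another library, against 1 in ESCs, 1 in MEFs, 0 in liver, 2 in shGFP and 4 in shSuz12. Many GABA-A genes lie in clusters. The chromosome 5 cluster of Gabrg1, Gabra2, Gabra4 and Gabrb1 had 0.326% of its length covered in brain and 1.041% in MEFs, and the pair of rho genes on chromosome 4 had 10.38% in brain and 16.95% in ESCs, so that neither was highest in brain.

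The products of the GABA-B genes form 1 receptor as a pair. By the lists as deposited, these genes had nearly as much of their span covered in liver (21.57%) as in brain (22.41%), by way of Gabbr2. Gabbr2 codes for the subunit that couples to G proteins. Its 329.6 kb held 65 brain, 60 ESC, 63 MEF, 67 liver, 27 shGFP and 34 shSuz12 peaks, and relative coverage was 1.63, 1.51, 1.57, 1.8, 0.977 and 1.13, in the same order. With the deposited thresholds the 4 cell types were close by this measure. Their peaks did not coincide, since 30 of the 65 brain peaks overlapped a liver peak and 17 overlapped none in the other cell types. At the common score, where 11 brain peaks remained, Gabbr2 had 1.06 in brain, 1.51 in ESCs, 1.52 in MEFs and 1.8 in liver. In liver 21 and 24 of the 67 peaks lay in the first and second of the 5 equal parts of the gene, against 4 and 17 of the 65 in brain. Gabbr1, for the subunit that binds GABA, had 1.30 in brain, 2.40 in ESCs, 1.38 in MEFs, 0.202 in liver, 1.66 in shGFP and 3.55 in shSuz12. Grid2ip, the scaffold gene, had no brain peak, against a relative coverage of 3.44 in ESCs, 0.447 in MEFs, 0.678 in liver, 2.77 in shGFP and 1.85 in shSuz12.

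Many of the brain peaks over receptor genes were in places where no other cell type had one. Of 510 brain peaks that touched a receptor gene, 234 overlapped no peak in ESCs, MEFs or liver, or 45.88% (41.49 to 50.32%), against 22.01% of the 108918 brain peaks over all protein-coding genes. Overlap with liver was 11.96% against 45.62%, with ESCs 38.04% against 49.03% and with MEFs 30% against 49.49%. The other lists also covered less of the receptor spans than of all gene spans: 1.313% against 12.92% in liver, 3.675% against 11.73% in ESCs and 3.405% against 11.86% in MEFs. The part of this in the overlap was not tested, and no share was computed for genes of at least 50 kb. Grik4, Grid1 and Gabbr2 held 253 of the 510 peaks. Brain peaks over receptor genes had lower scores than brain peaks at large, with a median of 45.84 against 49.81, and 77 of them reached 80. Of those 77, 22.08% had no overlap in the other cell types, and of the 433 below it, 50.12%. Most of the brain peaks without overlap, 217 of 234, were thus below the lowest score of the ESC and liver lists, but with only peaks of 80 or more in all lists 28.57% over receptor genes and 10.97% over all genes were without overlap, so the difference between them was found there too.

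The brain peaks over exons differed from those within introns. Of 78 brain peaks that touched an exon, 67.95% (56.42 to 78.07%) overlapped an ESC peak, and of 432 in introns alone, 32.64% (28.23 to 37.28%). Without overlap in the other cell types were 25.64% (16.42 to 36.79%) and 49.54% (44.72 to 54.36%). Neither pair of intervals overlaps, but they take each peak as independent, and Grik4, Grid1 and Gabbr2 held 253 of the 510 peaks. The peaks over exons were also wider (median 1132.5 against 1019 bp) and had higher scores (median 55.24 against 45.45). The part of width and score was not tested. Exons of the receptor genes were covered more densely than their introns in every library, 7.081 times in ESCs, 2.066 times in MEFs, 2.899 times in brain, 3.97 times in liver, 7.565 times in shGFP and 7.172 times in shSuz12. Over all protein-coding genes these ratios were 2.56, 1.175, 1.646, 1.852, 2.665 and 2.58.

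Near the TSS, the share of receptor genes with a peak was highest in ESCs. A peak within 1 kb of the TSS was found for 19 of the 45 in ESCs (42.22%, 27.66 to 57.85%), 4 in MEFs (8.889%, 2.475 to 21.22%), 7 in brain (15.56%, 6.491 to 29.46%), 3 in liver (6.667%, 1.397 to 18.27%), 15 in shGFP (33.33%, 20 to 48.95%) and 18 in shSuz12 (40%, 25.7 to 55.67%). For all protein-coding genes the shares were 31.92, 30.07, 20.01, 29.39, 27.13 and 21.4%. The receptor interval lay below the share of all genes in MEFs and liver, above it in shSuz12, and held it in ESCs, brain and shGFP. With only peaks that scored 80 or more, 3 genes were left in shSuz12 (6.667%, 1.397 to 18.27%), beside 5.065% of all genes, and the interval no longer lay above that share. Likewise 2 were left in MEFs (4.444%, 0.5428 to 15.15%), beside 11.99%. Of the 45 genes 28 had such a peak in some library.

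The 7 brain genes were Gabrr2 with 1025 bp covered of the 2000 bp window, Gabra5 with 725 bp, Gabrr1 with 650 bp, Gabbr2 with 559 bp, Grin2c with 282 bp, Grik2 with 85 bp and Grin2b with 78 bp. Gabra5, Gabrr1, Gabrr2 and Grin2c had a TSS peak in ESCs too, with 634, 1133, 400 and 966 bp. None of the 7 brain peaks reached a score of 80. The 3 genes with the most bp covered at the TSS in ESCs were Grin2d, Gabrb1 and Gabrr1. Grin2d, for GluN2D, had 1492 bp in shGFP, 1389 bp in ESCs and none in the other libraries. Gabrb1, for the beta subunit, had 1305 bp in ESCs, 1177 bp in shGFP, 1563 bp in shSuz12 and 0 bp in MEFs, brain and liver. The Gabra5 peak at the TSS lay upstream of the gene, whose span held 1 other brain peak in an intron, and another coding gene, Gm9962, overlaps that span.

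**Figure D4:**
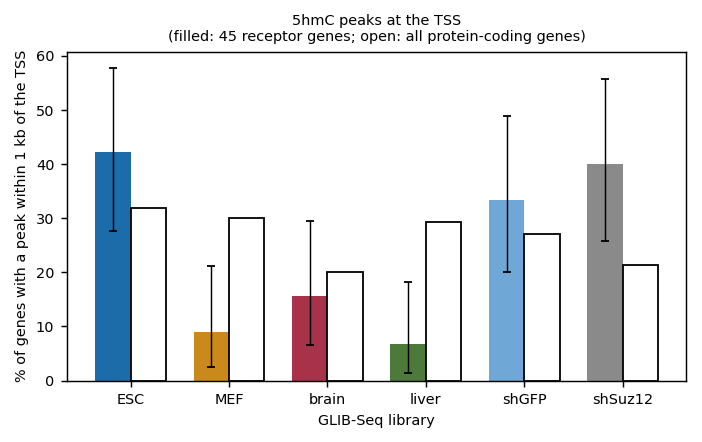
Percentage of genes with a 5hmC peak within 1 kb of the TSS in each of 6 libraries (1 library each), for the 45 receptor genes (filled bars, with exact 95% intervals) and all protein-coding genes (open bars). The filled bars are highest in ESCs and shSuz12 (42.22% and 40%) and lowest in liver and MEFs (6.667% and 8.889%), where the open bars are near 30%.

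The shSuz12 library was set against shGFP to ask which receptor genes change when the PRC2 subunit Suz12 is reduced in ESCs. Of 35 genes compared, 7 had at least 2-fold higher relative coverage in shSuz12, beside 11.4% of all protein-coding genes, and 5 were lower, beside 13.4%. The higher ones included Gabbr1, Gabra4, Gabrb1, Gabrr3, Grik1 and Grin3a, and the lower ones Gria2, Gria4, Grik2, Grm5 and Grm6. Most of them had few peaks. By difference, the values furthest above shGFP were those of Gabbr1 (1.66 to 3.55), Gabrd (0 to 0.928) and Grm2 (3.51 to 4.07), and those furthest below it were Grm6 (2.40 to 0), Grm4 (4.41 to 3.13) and Grid2ip (2.77 to 1.85). With only peaks that scored 80 or more, Grid2ip turned to 3.31 in shGFP and 5.26 in shSuz12. Gabrd, whose 1 shSuz12 peak covered 645 bp of the span, was then at 0 in both. Gabbr1, Grm2, Grm6 and Grm4 kept their direction. Within their spans, Gabbr1 had 5 peaks in shGFP and 8 in shSuz12, and Grm6 had 3 and 0. Near its TSS, however, Grm6 had 649 bp covered in shSuz12 and 0 bp in shGFP. At the TSS 9 genes had a peak in both, 6 in shGFP only and 9 in shSuz12 only. This split was not computed for all protein-coding genes, of which 27.13% had a TSS peak in shGFP and 21.4% in shSuz12. At a score of at least 80, 12 receptor genes had a TSS peak in shGFP and 3 in shSuz12, beside 19.02% and 5.065% of all genes. At that score the genes past the fold turned to 4 higher and 11 lower of 27, beside 12.2% and 43.1% of all genes. That score was reached by 17.01% of the shSuz12 peaks and 56.01% of the shGFP peaks, and its part in the change was not tested.

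Brain was also set against these ESC libraries. Against shGFP, 9 of 36 genes were higher in brain (22.5% of all genes) and 13 lower (31.5%). Against shSuz12, 6 of 37 were higher (22.8%) and 13 lower (27.7%). Grid1 and Grik1 were among the higher ones in both, and Grm2, Grm4, Grik5, Grin1 and Grin2c among the lower ones. At a score of at least 80, Grid1 was still higher in both and Grik1 in neither. Grin1 and Grin2c were then no longer among those lower than shSuz12.

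Base composition went along with these levels. Across the 45 genes, Spearman's rho between GC content of the span and relative coverage was 0.880 in ESCs, 0.548 in MEFs, 0.712 in brain, 0.574 in liver, 0.752 in shGFP and 0.783 in shSuz12. Across 4841 genes of at least 50 kb it was 0.781, 0.660, 0.675, 0.407, 0.749 and 0.733. These are descriptions across genes of the same library, which are not independent. Above a GC content of 47%, a cut placed after the values had been seen, lay 15 genes, with a median relative coverage of 1.31 in brain, 0.202 in liver, 3.44 in ESCs and 0.994 in MEFs. These genes were Grin1, Grin2c, Grin2d, Grin3b, Grik3, Grik4, Grik5, Grm2, Grm4, Grm6, Gabrd, Gabrr2, Gabbr1, Gabbr2 and Grid2ip. The other 30 had medians of 0.0691, 0, 0.0403 and 0.0705, in the same order. For all protein-coding genes above the cut the medians were 1.17, 1.21, 2.62 and 0.793, so of these 4 cell types the GC-rich receptor genes lay well below GC-rich genes at large in liver.

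**Figure D5:**
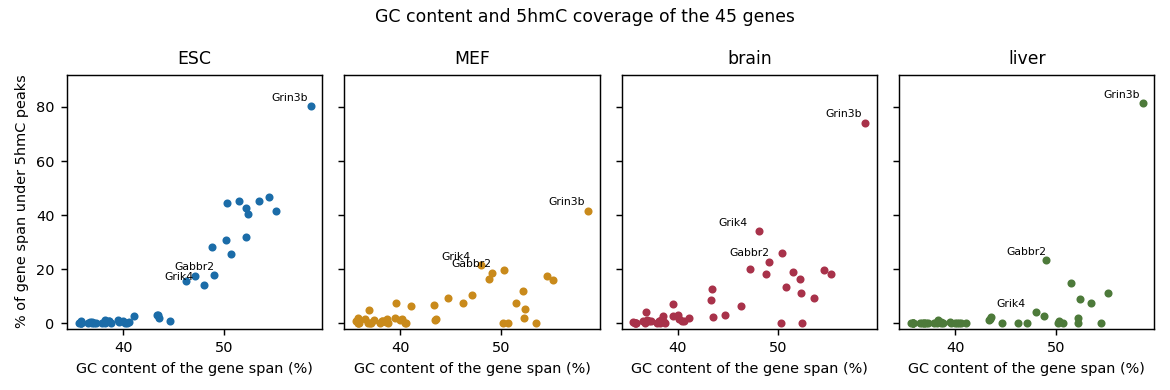
Percentage of each gene span under 5hmC peaks (vertical) against its GC content in percent (horizontal), for the 45 genes in ESCs, MEFs, brain and liver. Coverage climbs with GC content in ESCs (rho 0.880), whereas in liver no gene passes 14.69% apart from Grin3b (81.45%) and Gabbr2 (23.25%).

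Other genes of glutamate and GABA transmission, 47 chosen by role, had a low median level in liver, like the receptor genes, but not their highest in brain. Of those that could be compared, 18 of 37 were higher and 10 lower in brain than in liver, beside 26.8% and 31.2% of all protein-coding genes. Against ESCs 10 of 42 were higher and 13 lower (17.5% and 32.8% of all), and against MEFs 8 and 12 of 41 (28.2% and 18.3%). Against shGFP the counts were 10 and 16 of 41 (22.5% and 31.5%), and against shSuz12 5 and 12 of 41 (22.8% and 27.7%). In shSuz12 against shGFP 5 were higher and 4 lower of 41 (11.4% and 13.4%). Their median relative coverage was 0.537 in brain, 0.119 in liver, 0.981 in ESCs and 0.705 in MEFs. The highest ratio of brain to the highest of the other cell types was that of Neto1, an auxiliary subunit of kainate receptors, with 0.173 in brain against 0.0600 in ESCs. Cacng5, an auxiliary subunit of AMPA receptors, had 2.50 in brain, 0 in liver, 1.16 in ESCs and 0.334 in MEFs.

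At the other end, Gphn, the scaffold gephyrin at inhibitory synapses, had 0.0190 in brain and 0.221 in liver. Slc17a8, a vesicular glutamate transporter, had 0.136 in brain and 1.19 in liver, and Slc6a13, a GABA transporter known from liver and meninges, had 0.981 in brain and 5.31 in liver. Gad1 and Gad2, whose products make GABA, were without a brain peak. Gad1 had 0 in brain, 0.114 in liver, 1.49 in ESCs and 0.658 in MEFs, and Gad2 had 0, 0.0557, 0 and 0.187. Slc17a7 and Slc32a1, which load vesicles with glutamate and GABA, had 5.64 and 5.91 in ESCs, 7.75 and 9.73 in shGFP, 8.46 and 11.1 in shSuz12, and 0 in MEFs, brain and liver. Slc1a2, the main glutamate transporter of astrocytes, had 0.447 in brain, 0.372 in liver, 0 in ESCs and 0.952 in MEFs.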

How the data were processed

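GLIB-Seq had been made from 6 samples, 1 library per condition. Per the labels, which name CASAVA 1.8, Bowtie 0.12.7 and MACS 1.4.1, and the study's methods, the authors aligned the reads to mm9, retained those with a unique position, counted duplicate reads once and then called peaks. There is 1 list for each sample. The deposited lists give the position of each peak and a score, the authors' MACS value, assumed to be 10 times the negative log10 p-value. The control and threshold of each list are not given in the sources used here, and the lists hold no counts, so depth is unknown. RNA-Seq of the shGFP and shSuz12 cells was not analysed here.

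Peaks on nuclear chromosomes were set against the GENCODE annotation of NCBIM37 (22367 protein-coding genes). Mitochondrial peaks, 1 to 3 per list, were left out. Bp covered, peak midpoints, the TSS ± 1 kb, exons and introns were computed per gene, and relative coverage was the share of a span under peaks over that of all protein-coding spans. A gene was past the fold at a 2-fold difference with at least 1000 bp covered on the higher side, also against 0. With 1 library per condition no test was made.

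Genes named were, per family, the 2 highest and the lowest in brain relative coverage (4 and 3 for GABA-A), those with a brain TSS peak, the 3 with the most TSS bp in ESCs, the 3 furthest apart each way between shGFP and shSuz12, and those lower in brain than in all other cell types. Of the 47 pathway genes, the 3 highest and 3 lowest ratios and 5 genes chosen by role were named. Others are named for their score, count or call, chosen after their values were seen. Some genes that these rules name are not reported here. The members and lists were chosen with earlier results of these data known.

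Alternatives were a common score of 80, the higher-scoring 50% of each list, equal peak numbers, other folds, bp minimums, TSS windows, spans and overlaps, midpoints, and the genome as denominator. The steps were tested on simulated data. The tools were samtools 1.23.1, Python 3.11.15, scipy 1.17.1, pandas 2.3.3, matplotlib 3.10.9 and numpy 2.4.6.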

Additional observations from a re-analysis of the deposited data

How the results depend on the processing

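Of 228 alternative values, 176 stayed within 1.5 times the count or the counting interval, 52 moved further, and no share of peaks relative to the genome crossed 1. The cause was not tested in any case. No paired analysis was possible because the 6 libraries are 1 for each condition. With only peaks that scored 80 or more, brain was higher than ESCs for 3 genes, lower for 20, higher than liver for 14 and lower for 7, higher than shGFP for 5 and lower than shSuz12 for 7. shSuz12 was higher than shGFP for 4 and lower for 11. TSS peaks were left for 2 genes in MEFs, 0 in brain and 3 in shSuz12, the share relative to the genome was 0.3569 in MEFs and 0.5066 in brain, below the 0.5313 of ESCs, the exon to intron ratio 4.31 in brain and 13.67 in shSuz12, and brain peaks without overlap 28.57% over receptor genes and 10.97% over all genes. With the higher-scoring 50% of each list, brain was higher than ESCs for 10 and lower than liver for 2, shSuz12 was higher than shGFP for 4, TSS peaks were left for 11 genes in ESCs, 3 in brain and 10 in shSuz12, the shares relative to the genome were 0.6158 in brain, 0.1843 in liver and 0.3825 in MEFs, and 27.47% of brain peaks over all genes had no overlap. With equal numbers of peaks, brain was lower than liver for 3 and higher than shGFP for 5, the MEF share was 0.4188 and 25.11% had no overlap over all genes. A fold of 3 left brain higher than ESCs for 11 and lower for 6, lower than shGFP for 6 and than shSuz12 for 8, and shSuz12 higher than shGFP for 2, whereas a fold of 1.5 put brain above shSuz12 for 11. With at least 2000 bp, shSuz12 was higher for 2 and lower for 3. With midpoints it was higher for 4, and the exon to intron ratio was 9.743 in ESCs and 3.041 in MEFs. TSS windows of 2 kb gave 10 genes in MEFs and 11 in brain, windows of 500 bp 4 in brain and 9 in shSuz12, and the starts of all protein-coding transcripts 8 in MEFs, 14 in brain and 5 in liver. Flanks of 10 kb gave 0.3041 in liver. Requiring 50% of the brain peak to overlap gave 57.06% without overlap over receptor genes and 30.62% over all genes. Leaving out chromosomes X and Y, added after the data had been seen, moved no count by more than 1.5 times. Unknown depth, unequal thresholds and single libraries limit all of these values: a gene at 0 in a list may carry 5hmC below its threshold.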
